A study of Homo sapiens with 16 samples.

Results

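The forkhead genes FOXA2, FOXA3, FOXC1, FOXD1, FOXK1, FOXO1, FOXO3, FOXP1 and FOXQ1 were followed in bladder cancer cells in which FOXA1, a member of the same family, was the target of small interfering RNAs (siRNAs). The question was whether any of them rises when FOXA1 is lowered. The genes were taken by symbol, and all 9 were among the 58721 genes of the deposited tables. RNA was measured in 16 libraries by 3′ sequencing, which reads the ends of polyadenylated transcripts. RT112, a bladder cancer line of the luminal type, was cultured in RPMI, and SCaBER, a bladder carcinoma line of the basal type, in DMEM, each with 10% FBS, so line and medium cannot be told apart. No engineered allele is named for either line. Each line received siFOXA1.1, siFOXA1.2, siControl.1 or siControl.2 by lipid transfection, with 2 libraries per siRNA, numbered in the labels as experiment batch replicates 1 and 2. The siRNA was given at 10 nM per the labels. The labels do not say whether libraries came from separate cultures, so p-values measure the spread between these libraries, which may be technical.

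Forkhead factors share a winged-helix domain that binds DNA at closely related sequences. The FOXA proteins are pioneer factors, which can bind their sites in closed chromatin, and FOXA1 works with GATA3 and PPARG in the luminal urothelium. The FOXO proteins are kept out of the nucleus when PI3K and AKT signalling is active, so their RNA level does not give their activity.

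Library totals ranged from 4528513 to 7604581 counts, and values are given below as CPM, which are counts scaled to the library total, or as TPM, which also divides by gene length. A count of 3, used as the detection floor, was 0.394 to 0.453 CPM in RT112 and 0.434 to 0.662 CPM in SCaBER. Of 11 luminal markers, 8 were tested between the control libraries and 8 were higher in RT112, whereas KRT20 and UPK3A were at 0 there in both lines. Of 10 basal markers, 8 were higher in SCaBER. Among all genes tested between the control libraries, 21.2% were called higher in RT112 and 22.2% higher in SCaBER. The siFOXA1.1 libraries stood apart in both lines in cell cycle and interferon markers. The summed CPM of 12 cell cycle markers was 419.6 to 811.2 in RT112 siFOXA1.1 against 3296 to 3907 in the RT112 controls, and 897 to 1621 in SCaBER siFOXA1.1 against 2780 to 3617. The summed CPM of 12 interferon markers was 2021 to 2391 in RT112 siFOXA1.1 against 286.4 to 333.8, and 7993 to 10570 in SCaBER siFOXA1.1 against 1514 to 2584. The mitochondrial share of counts was 25.7% to 28.2% in RT112 siFOXA1.1 and 18.0% to 21.2% in the other RT112 libraries. The luminal sum was lower in RT112 with both siRNAs, whereas the basal sum left the control range with siFOXA1.2 only. The luminal sum was 2537 to 2878 CPM with siFOXA1.1 and 2791 to 2831 CPM with siFOXA1.2 against 3903 to 4430 CPM in the controls, with 6 and 3 of 8 tested lower and 0 higher. The basal sum was 736.5 to 842.7 CPM with siFOXA1.1 and 1055 to 1161 CPM with siFOXA1.2, against 598.6 to 866.9 CPM. Of these 10 markers, 3 and 4 were called higher and 2 and 0 lower. Among all genes tested, 14% were called higher and 15.1% lower with siFOXA1.1, and 0.877% and 0.899% with siFOXA1.2. In SCaBER 2 of 7 luminal markers were lower with siFOXA1.1, where 4.07% of all genes were. No other luminal or basal marker was called in that line with either siRNA (edgeR). The part of these differences in the results on forkhead genes was not tested.

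FOXA1 itself, on the minus strand of chromosome 14, was read first as a check of the labels. In RT112 it was at 35.0, 29.5, 18.2 and 28.4 CPM in the siControl libraries, at 1.32 and 3.24 CPM with siFOXA1.1, and at 9.18 and 16.0 CPM with siFOXA1.2. Both siRNAs lay below every control library. It fell with siFOXA1.1 (log2 fold change -3.45, SE 0.473, edgeR quasi-likelihood test, Benjamini-Hochberg adjusted p = 1.39e-05). With siFOXA1.2 the log2 fold change was -1.10 (SE 0.390) and did not pass (edgeR adjusted p = 0.215). In SCaBER only 3, 4, 15 and 9 counts of FOXA1 were read in the controls, 0 and 3 with siFOXA1.1, and 0 and 6 with siFOXA1.2. A fall of FOXA1 is therefore not shown in SCaBER, and results in that line are read as the response to these siRNAs only.

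At baseline the detected forkhead genes ran from the percentile 35.1 (FOXP1) to the percentile 97.3 (FOXC1) of the length-scaled levels of genes detected in RT112. By CPM they ran from the percentile 41.3 (FOXA2) to the percentile 97.8 (FOXC1). In RT112 siControl libraries FOXC1, a factor of eye, vessel and neural crest development, had 161.6 ± 29.8 TPM (SD, n = 4 for all levels here). FOXQ1, a factor of epithelial and hair follicle differentiation, followed with 67.0 ± 13.5 TPM, FOXO3, an activator of stress response and cell death genes, with 23.5 ± 4.82 TPM, and FOXO1, a mediator of the response to insulin, with 15.3 ± 3.37 TPM. FOXA1 had 13.6 ± 3.10 TPM, FOXD1, known from kidney stroma and retina, 6.73 ± 2.77 TPM, FOXA2, the paralogue known from endoderm and liver, 2.36 ± 0.209 TPM, FOXK1, a repressor of autophagy genes, 1.77 ± 1.01 TPM, and FOXP1, a repressor known from lymphocytes and lung, 1.44 ± 0.319 TPM. Neighbours in this order that overlapped in range were FOXO3 with FOXO1, FOXO1 with FOXA1, FOXA2 with FOXK1 and FOXK1 with FOXP1.

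In SCaBER siControl libraries the order of TPM was FOXC1 (56.5 ± 15.7), FOXO3 (42.5 ± 5.37), FOXD1 (19.4 ± 4.34), FOXQ1 (19.2 ± 6.87), FOXO1 (11.4 ± 4.94), FOXA2 (4.61 ± 2.85), FOXK1 (3.27 ± 0.620), FOXP1 (1.85 ± 0.483) and FOXA1 (0.888 ± 0.614). Only FOXO3 and FOXD1 were neighbours without overlap. FOXA3, the third FOXA paralogue, had 0 counts in all 16 libraries and was not detectable at this depth in either line, where a count of 0 allows a level up to the floor of 3 counts. Length scaling matters for these ranks. Of 18 ranks over both lines, 5 were the same by TPM and CPM. In SCaBER FOXO3 was first by CPM (128.1 ± 14.0 against 86.9 ± 25.3 for FOXC1, with overlapping ranges), and division by length need not fit reads from transcript ends. In RT112 FOXP1 had rank 9 by TPM but rank 6 by CPM, at 26.8 ± 4.99 CPM beside 27.8 ± 6.98 CPM for FOXA1. In SCaBER FOXP1 had rank 8 by TPM and rank 4 by CPM.

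**Figure D1:**
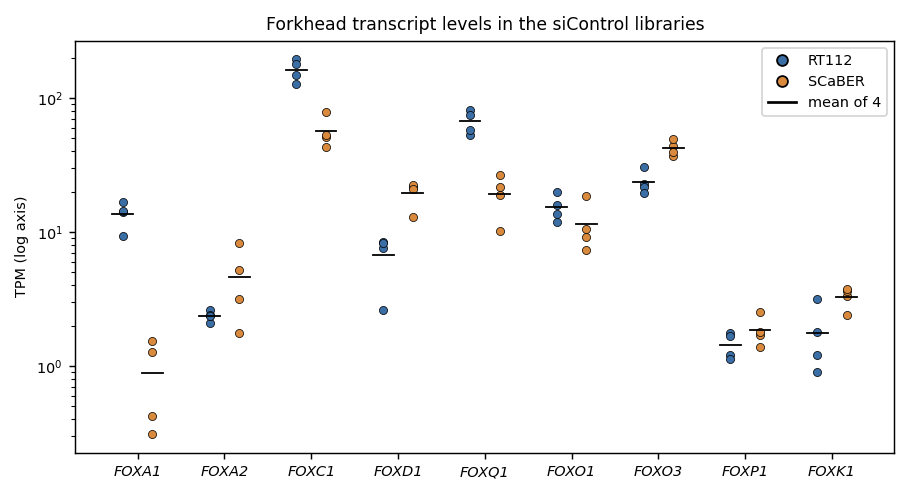
Length-scaled level (TPM, log axis) of FOXA1 and the other detected forkhead genes in the 4 siControl libraries of each line, with each point a library and the bar the mean. FOXC1 has the highest mean TPM in both lines, 161.6 in RT112 and 56.5 in SCaBER, where by CPM FOXO3 is first, and FOXA1 is the lowest of those shown in SCaBER. FOXP1 is the lowest in RT112 by TPM but has rank 6 by CPM.

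Between the control libraries of the lines, 4 of 8 forkhead genes tested differed, where 43.4% of 12309 genes did (21.2% higher and 22.2% lower in RT112). FOXQ1 was higher in RT112 (log2 difference 2.20, SE 0.279, edgeR adjusted p = 1.48e-05), and so were FOXC1 (1.90, SE 0.191, edgeR adjusted p = 1.44e-06) and FOXO1 (0.80, SE 0.277, edgeR adjusted p = 0.0297). FOXD1 was lower in RT112 (log2 difference -1.14, SE 0.359, edgeR adjusted p = 0.0187). The FOXO1 difference did not pass with limma on TPM (adjusted p up to 0.209) or without any 1 of 5 libraries (up to 0.0883). That of FOXO3 did not pass (-0.44, SE 0.178, edgeR adjusted p = 0.0592), but did in 5 of 8 other settings. These were library totals alone (adjusted p = 0.0431), no count filter (0.0416), DESeq2 (0.0464) and limma on TPM with either pseudocount (-0.84 and -0.86, adjusted p = 0.00218 and 0.00245). It also passed without replicate 2 of RT112 siControl.1 (-0.62, edgeR adjusted p = 0.00847). FOXA2 (log2 difference -0.54, SE 0.596), FOXK1 (-0.50, SE 0.365) and FOXP1 (0.02) did not pass. FOXP1 was on the other side of 0 with limma on TPM (-0.22).

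Under siFOXA1.1 in RT112, no other forkhead gene followed was called higher, and FOXO1, FOXQ1 and FOXC1 fell. FOXA2 lay above every control but did not pass, so a rise of it is neither shown nor excluded. Of the 8 genes tested, 3 were called lower, where 15.1% of 13462 genes were called lower and 29.1% were called in either direction. The median log2 fold change of the 8 was -0.51, beside -0.02 over all genes tested. With siFOXA1.2, FOXC1 rose and no other was called. None differed between the control siRNAs in RT112, where 2.11% of genes did (edgeR; 1644 genes had an unadjusted p under 0.05, and FOXC1, FOXK1 and FOXO3 were among them). The calls for all genes under siFOXA1.1 were 1878 higher and 2037 lower, and became 1490 and 2453 with library totals alone and 851 and 2912 with limma on TPM. These scalings moved the median log2 fold change of all genes by -0.12 and -0.25.

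FOXA2 was the FOXA paralogue with reads. In RT112 it had 27, 19, 23 and 22 counts in the siControl libraries, or 3.55, 2.87, 3.06 and 3.06 CPM, 9.23 and 5.60 CPM with siFOXA1.1 (63 and 38 counts), and 3.93 and 2.19 CPM with siFOXA1.2. Both siFOXA1.1 libraries were above every control, whereas siFOXA1.2 overlapped the controls. For siFOXA1.1 this was the only forkhead gene of the 9 above all 4 controls, where 17% of genes tested were. The log2 fold change of 1.35 (SE 0.709, 95% interval -0.13 to 2.83) did not pass (edgeR adjusted p = 0.164), nor did it in any of 8 other settings (0.106 to 0.275). For siFOXA1.2 it was -0.02 (SE 0.747, 95% interval -1.58 to 1.54).

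Added together, FOXA1 and FOXA2 gave 38.5, 32.3, 21.3 and 31.4 CPM in the RT112 controls, 10.5 and 8.84 CPM with siFOXA1.1, and 13.1 and 18.2 CPM with siFOXA1.2. Every siFOXA1 library had a lower summed FOXA count than every control, also where FOXA2 was above its control range. FOXA1 made up most of the control sum (mean 27.75 CPM, beside 3.134 CPM for FOXA2). The lower sum therefore mostly follows FOXA1, the siRNA target, and is no separate test of FOXA2. In SCaBER, FOXA2 had 1.83, 5.14, 3.25 and 8.39 CPM in the controls, 2.46 and 0.868 CPM with siFOXA1.1, and 2.78 and 7.13 CPM with siFOXA1.2. These ranges overlapped, and neither change passed (log2 fold changes -1.39, SE 0.995, and 0.16, SE 0.903, edgeR adjusted p = 0.473 and 1). In bulk libraries, fewer cells expressing a gene and less of its RNA per cell cannot be told apart.

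**Figure D2:**
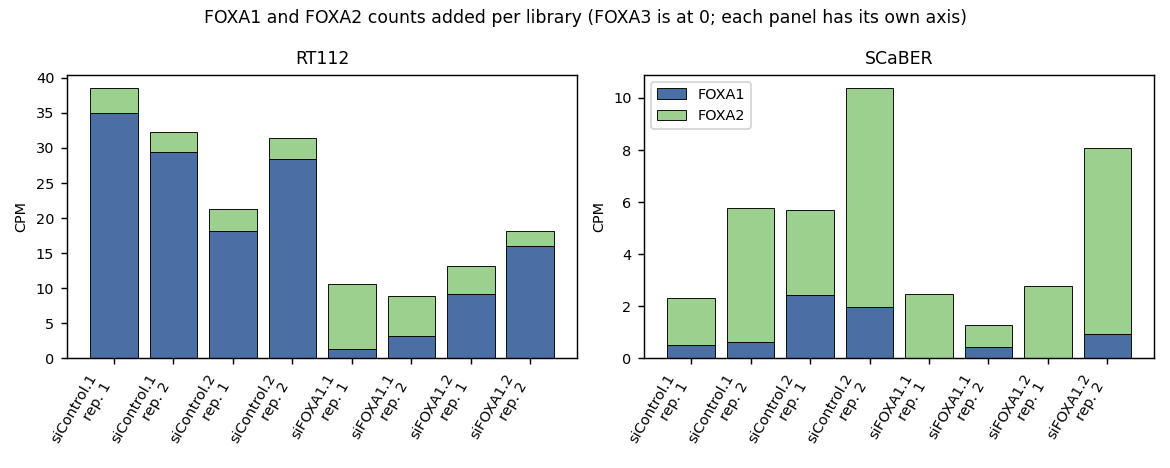
FOXA1 and FOXA2 levels (CPM) stacked for each library, with 1 panel per line on its own axis starting at 0. In RT112 the sum is 21.3 to 38.5 CPM in the 4 control libraries and 8.84 to 18.2 CPM in the 4 siFOXA1 libraries. FOXA3 has no reads and is not drawn.

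FOXO1 fell under siFOXA1.1 in RT112. It had 44.7, 39.1, 60.4 and 49.5 CPM in the control libraries, 12.3 and 6.92 CPM with siFOXA1.1, and 67.8 and 60.9 CPM with siFOXA1.2. The siFOXA1.1 libraries lay below, and the siFOXA1.2 libraries above, all 4 controls. The log2 fold change was -2.20 with siFOXA1.1 (SE 0.271, 95% interval -2.77 to -1.63, edgeR adjusted p = 3.89e-06), and -2.10 and -2.68 within batches 1 and 2. With siFOXA1.2 it was 0.44 (SE 0.228, 95% interval -0.04 to 0.91, edgeR adjusted p = 0.488). The siRNAs differed from each other by -2.64 (SE 0.296, edgeR adjusted p = 2e-06), a comparison in which 24.7% of genes were called.

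FOXQ1 also fell with siFOXA1.1. It had 99.3, 90.9, 60.6 and 67.0 CPM in the RT112 controls, 28.7 and 8.40 CPM with siFOXA1.1, and 76.4 and 72.4 CPM with siFOXA1.2. Both siFOXA1.1 libraries were below all controls, although more than 3-fold apart from each other, and siFOXA1.2 lay within the control range. FOXO1, FOXQ1 and FOXC1 were the 3 of the 9 genes below every control with siFOXA1.1, where 27.2% of genes were. The log2 fold change was -1.96 with siFOXA1.1 (SE 0.308, edgeR adjusted p = 6.42e-05), from -3.06 without replicate 1 to -1.35 without replicate 2 and -1.48 and -3.23 within batches 1 and 2, and -0.05 with siFOXA1.2 (SE 0.271, 95% interval -0.62 to 0.52). The difference between the siRNAs was -1.91 (SE 0.334, edgeR adjusted p = 0.000276).

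FOXC1 moved in opposite directions with the siRNAs in RT112. The controls had 262.9, 304.9, 374.2 and 349.1 CPM, the siFOXA1.1 libraries 233.1 and 208.0 CPM, and the siFOXA1.2 libraries 475.7 and 474.2 CPM. The siFOXA1.1 libraries were below and the siFOXA1.2 libraries above all controls, 1 of 3 genes of the 9 above every control with siFOXA1.2 (FOXC1, FOXO1 and FOXP1), where 8.66% of genes were. FOXC1 fell with siFOXA1.1 (log2 fold change -0.42, SE 0.113, edgeR adjusted p = 0.00801) and rose with siFOXA1.2 (0.58, SE 0.108, edgeR adjusted p = 0.00518), the latter among 0.877% of genes called higher and 1.78% called at all. The rise was 0.58 and 0.54 within batches 1 and 2, but did not pass with limma on TPM (adjusted p = 0.108 and 0.119). The fall with siFOXA1.1 was -0.72 and -0.73 with limma on TPM, where the median of all genes was -0.27 and -0.36. FOXC1 differed by -1.0 on the log2 scale between the siRNAs (SE 0.129, edgeR adjusted p = 9.61e-06). Between them, 4 of 8 genes were lower with siFOXA1.1 (FOXC1, FOXO1, FOXQ1 and FOXP1), where 13.3% of genes were.

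The promoters of FOXO1 and FOXQ1, which fell together, are shown beside that of FOXA1. RefSeq windows on GRCh38.p14, from 250 bases before to 50 after each start, were found for 9 of the 10 genes (FOXA1 and the others except FOXA2), 17 windows in all. The 250 bases before the start are printed 5′ to 3′ on the strand of the gene. Capitals mark any of the 3 forkhead words named below, and other forkhead sequences were not searched. The stretches are chr14:37595250-37595499 on the minus strand for FOXA1, chr13:40666642-40666891 on the minus strand for FOXO1 and chr6:1311848-1312097 on the plus strand for FOXQ1.
FOXA1: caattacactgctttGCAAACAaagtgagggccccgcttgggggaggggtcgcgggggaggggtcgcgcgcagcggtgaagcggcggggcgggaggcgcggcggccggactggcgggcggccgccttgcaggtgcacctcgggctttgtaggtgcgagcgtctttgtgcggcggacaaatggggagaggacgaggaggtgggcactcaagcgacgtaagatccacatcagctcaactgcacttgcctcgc
FOXO1: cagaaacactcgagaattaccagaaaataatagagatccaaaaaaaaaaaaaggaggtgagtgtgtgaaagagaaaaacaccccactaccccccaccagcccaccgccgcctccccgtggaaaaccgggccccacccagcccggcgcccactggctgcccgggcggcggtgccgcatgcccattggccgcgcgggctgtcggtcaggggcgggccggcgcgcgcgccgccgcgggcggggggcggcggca
FOXQ1: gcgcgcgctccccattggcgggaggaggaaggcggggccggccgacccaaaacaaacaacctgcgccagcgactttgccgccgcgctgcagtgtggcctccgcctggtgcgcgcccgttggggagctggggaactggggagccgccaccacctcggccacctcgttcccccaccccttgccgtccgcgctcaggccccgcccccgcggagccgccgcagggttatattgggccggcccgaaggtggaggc
Each of 3 words of forkhead sites was searched on both strands. At least 1 of them was in 2 of the 17 windows, where 9.57% of 35116 RefSeq windows hold one. The word TGTTTGC stood at 235 bases before the FOXA1 start on the opposite strand, and 3.89% of all windows hold it. The word TGTTTAC was in 1 of 6 FOXP1 windows, and 3.42% of all hold it. The word TATTTAC was in none of the 17, and 2.67% of all hold it. The FOXA1, FOXO1 and FOXQ1 stretches had a GC content of 67.2%, 67.2% and 74.0%, beside a median of 58% over all windows. FOXQ1 and FOXC1 lie on the same arm of chromosome 6, with 295157 bases from the end of FOXQ1 at 1314758 to the start of FOXC1 at 1609915.

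Among the other forkhead genes followed, FOXP1 had 23.3, 21.7, 31.5 and 30.6 CPM in the RT112 controls, 22.3 and 8.99 CPM with siFOXA1.1, and 37.7 and 32.5 CPM with siFOXA1.2. Only replicate 2 of siFOXA1.1 was below the controls, and the log2 fold change of -0.65 did not pass (SE 0.321, edgeR adjusted p = 0.142). Without replicate 1 of siFOXA1.1 it was -1.41, with 1 library of that siRNA left. The siRNAs differed by -1.07 (SE 0.362, edgeR adjusted p = 0.0354), which did not pass with limma on TPM (0.137 and 0.161), without replicate 2 of siFOXA1.1 (0.309) or without replicate 1 of siFOXA1.2 (0.121).

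FOXO3 had 92.1, 124.0, 82.0 and 74.8 CPM in the RT112 controls, 104.3 and 107.5 CPM with siFOXA1.1, and 95 and 84.1 CPM with siFOXA1.2. All siFOXA1 libraries lay within the control range. The log2 fold changes were 0.33 (SE 0.161, 95% interval -0.01 to 0.66) and -0.02 (SE 0.163, 95% interval -0.36 to 0.32), with edgeR adjusted p of 0.138 and 0.987. Reads of FOXO3 could in part stem from the near-identical FOXO3B, which is listed at 0 in every library.

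FOXD1 had 10.4, 3.62, 10.9 and 10.8 CPM in the RT112 controls, 5.86 and 4.71 CPM with siFOXA1.1, and 11.1 and 9.70 CPM with siFOXA1.2. The siFOXA1.1 libraries were below 3 of the 4 controls. The log2 fold changes were -0.60 (SE 0.521, edgeR adjusted p = 0.421) and 0.27 (SE 0.494, edgeR adjusted p = 0.924). FOXK1 ranged from 6.18 to 20.5 CPM in the controls and from 11.1 to 16.9 CPM in the 4 siFOXA1 libraries, within the control range. Its log2 fold changes were 0.20 (SE 0.387, edgeR adjusted p = 0.743; -0.08 with limma on TPM) and 0.61 (SE 0.378, edgeR adjusted p = 0.606).

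**Figure D3:**
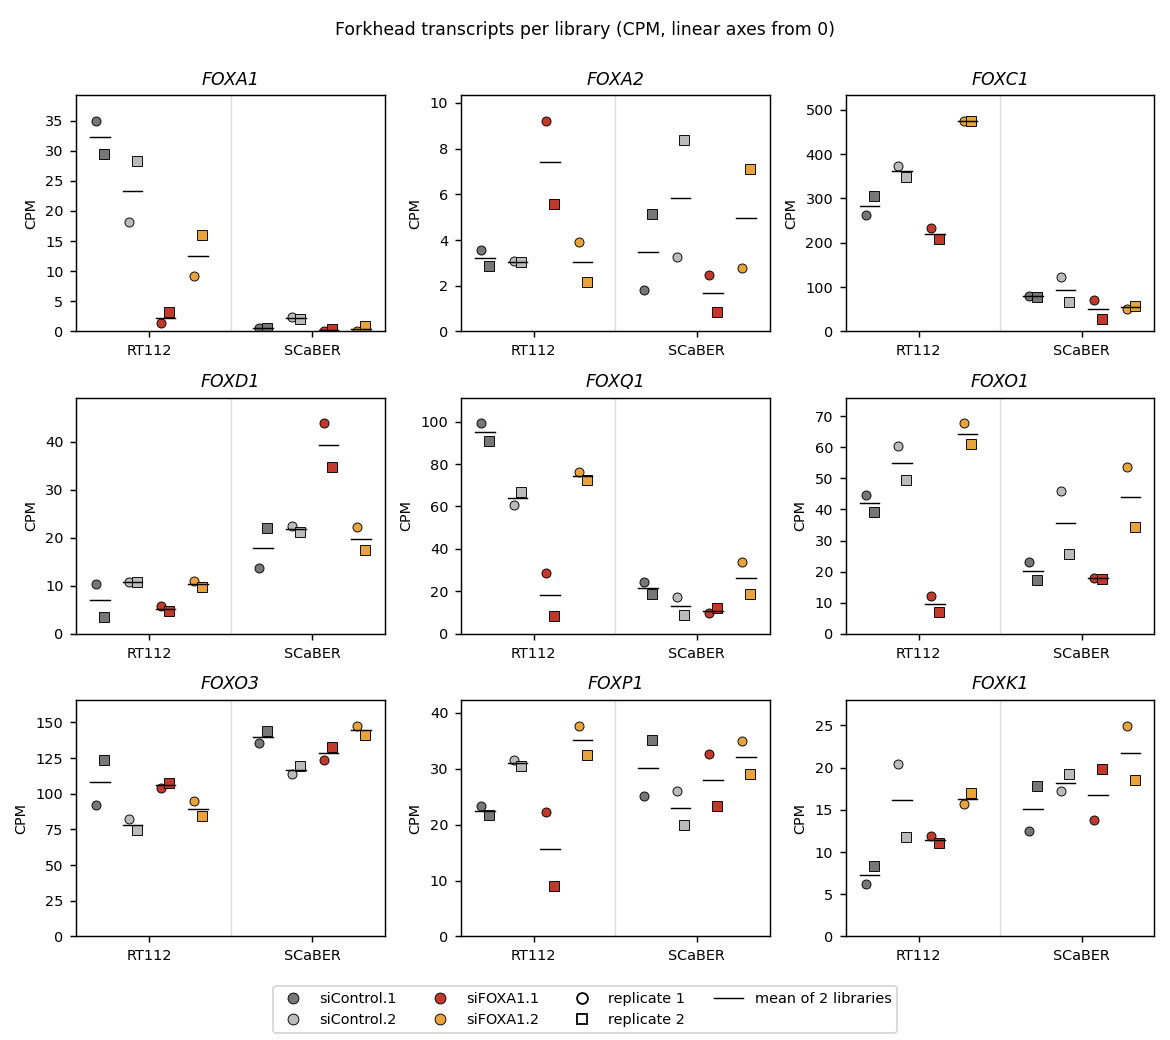
Levels (CPM) of FOXA1 and the 8 other detected forkhead genes in each of the 16 libraries, by line and siRNA, with 1 panel per gene on its own axis. In RT112 both siFOXA1.1 libraries of FOXO1 (12.3 and 6.92 CPM) and FOXQ1 (28.7 and 8.40 CPM) lie below all 4 controls, and those of FOXA2 (9.23 and 5.60 CPM) above them.

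In SCaBER, none of the 8 genes tested was called under either siRNA (edgeR), where siFOXA1.1 changed 7.87% of 13407 genes and siFOXA1.2 0.0373% (5 genes, and 24 with the replicate number as a block). At an unadjusted p under 0.05, FOXC1 and FOXD1 were among 2830 genes with siFOXA1.1 and FOXO1 among 702 with siFOXA1.2. FOXD1 had 13.6, 22.1, 22.4 and 21.2 CPM in the controls, 43.9 and 34.9 CPM with siFOXA1.1, and 22.2 and 17.4 CPM with siFOXA1.2. Only the siFOXA1.1 libraries were above all controls, where 13.4% of genes were. The log2 fold change was 1.03 (SE 0.309, 95% interval 0.37 to 1.69, edgeR adjusted p = 0.0543), and 1.29 and 0.69 within batches 1 and 2. It passed with the replicate number as a block (1.02, edgeR adjusted p = 0.0404), with DESeq2 (0.0435) and without the count filter (0.0438), but not in the 5 further settings (up to 0.0907). Leaving out 1 library, it was 0.81 without replicate 1 of siFOXA1.1, 1.22 without replicate 2 of siFOXA1.1 and 1.21 without replicate 2 of siControl.1.

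FOXC1 in SCaBER had 80.9, 77.8, 123.5 and 65.6 CPM in the controls, 71.8 and 27.9 CPM with siFOXA1.1, and 50.9 and 58.5 CPM with siFOXA1.2. The siFOXA1.2 libraries were below all controls, where 8.09% of genes were, and replicate 1 of siFOXA1.1 was not. Neither log2 fold change passed, with -0.76 (SE 0.349, edgeR adjusted p = 0.225) and -0.64 (SE 0.346, edgeR adjusted p = 0.974). Without replicate 1 of siFOXA1.1 the former was -1.65, and without replicate 2 it was -0.20, each with 1 library of that siRNA left.

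FOXO1 in SCaBER had 23.0, 17.3, 45.9 and 25.6 CPM in the controls, 18.0 and 17.6 CPM with siFOXA1.1, and 53.5 and 34.4 CPM with siFOXA1.2. Values for both siRNAs overlapped the controls. The log2 fold changes were -0.57 (SE 0.340, 95% interval -1.29 to 0.16) and 0.73 (SE 0.319, edgeR adjusted p = 0.908). Between the siRNAs, where 4.13% of genes were called and none of the 8 was, FOXO1 differed by -1.30 (SE 0.385, edgeR adjusted p = 0.0767), and by -1.25 with the replicate number as a block, which passed (edgeR adjusted p = 0.0327).

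FOXQ1 in SCaBER had 24.5, 18.9, 17.2 and 9.05 CPM in the controls, 9.66 and 12.0 CPM with siFOXA1.1, and 34.1 and 18.9 CPM with siFOXA1.2. Replicate 1 of siFOXA1.2 was above the controls and the other siFOXA1 libraries lay within their range. Its log2 fold changes were -0.62 (SE 0.411, 95% interval -1.49 to 0.26) and 0.67 (SE 0.385, 95% interval -0.15 to 1.49). FOXO3, FOXP1 and FOXK1 had log2 fold changes between 0.04 and 0.42 under both siRNAs, none of which passed (edgeR adjusted p from 0.881 to 1). Between the control siRNAs in SCaBER 0.0671% of genes differed and none of the 8 did (edgeR), although FOXO1 differed by -0.85 (SE 0.383, edgeR adjusted p = 0.781) and was among 852 genes with an unadjusted p under 0.05.

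**Figure D4:**
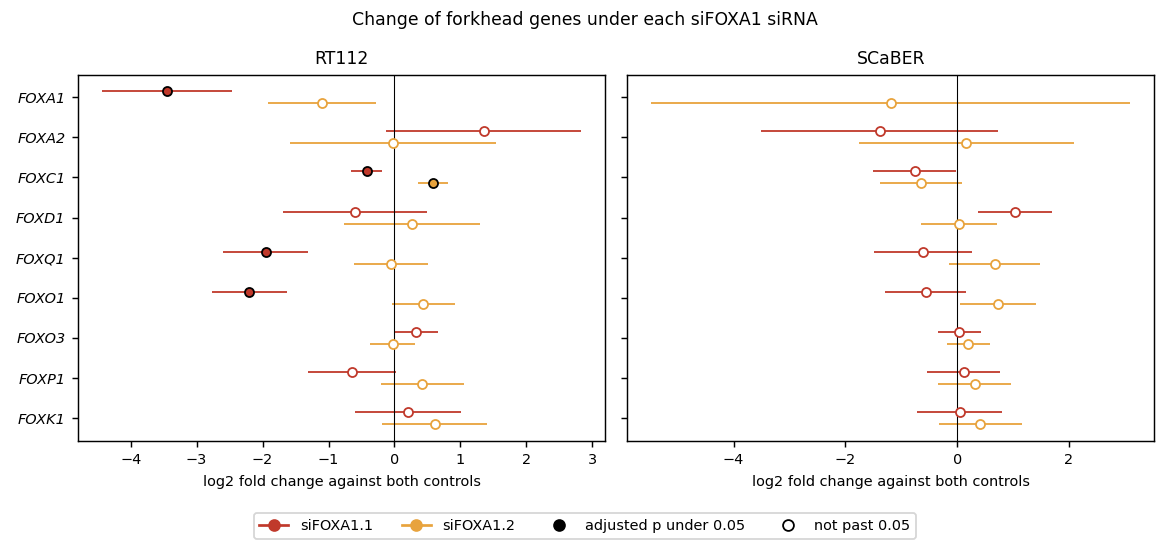
Log2 fold change of each forkhead gene against both control siRNAs with its 95% interval from edgeR, for each siFOXA1 siRNA and line. In RT112 with siFOXA1.1 the intervals of FOXO1 (-2.77 to -1.63), FOXQ1 and FOXC1 lie below 0, and with siFOXA1.2 that of FOXC1 lies above it. FOXA1 with siFOXA1.1 in SCaBER is not drawn because its libraries held at most 3 counts.

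The difference between the lines was tested for each siRNA in all 16 libraries. Under siFOXA1.1, FOXO1 fell by 1.65 more on the log2 scale in RT112 than in SCaBER (log2 difference -1.65, SE 0.439, 95% interval -2.57 to -0.74, edgeR adjusted p = 0.0470), among the 2.59% of 15464 genes called. It passed in 8 other settings (0.0111 to 0.0483). It did not without replicate 2 of RT112 siFOXA1.1 (-1.32, edgeR adjusted p = 0.201), replicate 1 of RT112 siControl.1 (0.0616), replicate 1 of RT112 siControl.2 (0.0676) or replicate 2 of SCaBER siControl.2 (0.0769). FOXQ1 (-1.36, SE 0.525, edgeR adjusted p = 0.205), FOXD1 (-1.65, SE 0.572, edgeR adjusted p = 0.146) and FOXA2 (2.73, SE 1.16, edgeR adjusted p = 0.262) did not pass. The FOXQ1 value was -2.45 without replicate 1 of RT112 siFOXA1.1, with 1 library of that group left. Under siFOXA1.2, 0 of 8 were called (edgeR), where 0.0453% of genes were, and FOXC1 was among 902 with an unadjusted p under 0.05 (1.23, SE 0.377, edgeR adjusted p = 0.539). It passed without the count filter (adjusted p = 0.00195).

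With both siFOXA1 siRNAs pooled against both controls, none of the 8 genes was called in either line (edgeR). In RT112 0.108% of 11986 genes were called and 1454 had an unadjusted p under 0.05, none of them among the 8. In SCaBER 0.0084% of 11902 were called (with the replicate number as a block, 0 genes in either line), and FOXC1 was among 1059 such genes (log2 fold change -0.71, SE 0.291, edgeR adjusted p = 0.541). No gene of the 9 was separated from the 4 controls in all 4 siFOXA1 libraries, where 7.95% of genes were in RT112 and 5.28% in SCaBER. An exact, two-sided permutation of 4 against 4 libraries by their CPM can give no p below 0.0286. Its permutation p was 0.0286 for FOXA1 in RT112, 0.0571 for FOXC1 in SCaBER, and 0.171 for FOXQ1 and 0.229 for FOXA2 in RT112. Both the pooled fit and the permutation treat libraries of different siRNAs as replicates of 1 condition. Libraries of 1 siRNA are not exchangeable with those of another, so these pooled calls and p-values are a description only.

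The rest of the family was taken from a list of 39 forkhead genes. Of all 49 members with FOXA1, 16 had 0 counts in every library. In RT112 with siFOXA1.1, 0 of 13 tested were called higher and 3 lower, where 14% and 15.1% of all genes were, with a median log2 fold change of -0.23 beside -0.02 for all genes. FOXM1, an activator of mitotic genes, had 61, 61.8, 104.9 and 77.0 CPM in the RT112 controls, 13.3 and 10.3 CPM with siFOXA1.1, and 75.9 and 78.1 CPM with siFOXA1.2. It fell with siFOXA1.1 only, below every control (log2 fold change -2.54, SE 0.230, edgeR adjusted p = 8.11e-08). FOXJ2 (-1.28, SE 0.347, edgeR adjusted p = 0.00802) and FOXD2 (-2.09, SE 0.628, edgeR adjusted p = 0.0161) fell as well.

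In SCaBER with siFOXA1.1, FOXM1 fell from 174.1, 146.8, 147.0 and 132.3 CPM to 45.8 and 49.8 CPM (log2 fold change -1.62, SE 0.208, edgeR adjusted p = 0.000204). It was the 1 called lower of 12 tested, where 4.07% of all genes were. With siFOXA1.2, 0 of 13 in RT112 and 0 of 12 in SCaBER were called (edgeR), where 1.78% and 0.0373% of all genes were. Of the cell cycle markers given above, 11 of 12 fell with siFOXA1.1 in each line and none was at 0. Among all genes tested, 15.1% in RT112 and 4.07% in SCaBER were called lower with that siRNA. The whole family summed to 860.8 to 983.1 CPM in the RT112 controls, 632.4 and 519.5 CPM with siFOXA1.1, and 1069 and 1050 CPM with siFOXA1.2. In SCaBER the sum was 625.8 to 737.7 CPM in the controls, 514.5 and 503.0 CPM with siFOXA1.1, and 668.7 and 657.5 CPM with siFOXA1.2. Of 13 antisense and neighbouring genes listed, 11 were in the table, and none reached a mean of 20 counts in a line.

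The FOXO pathway was read through 20 genes known as FOXO targets, which have 21 entries in the table because SOD2 has 2, and 12 regulators. In RT112 with siFOXA1.1, 4 targets were higher and 4 lower of 17 tested, where 14% and 15.1% of all genes were. FBXO32, a muscle atrophy ubiquitin ligase subunit, had 10.4, 15.9, 11.2 and 13.6 CPM in the controls, 118.3 and 127.3 CPM with siFOXA1.1, and 20.7 and 28.0 CPM with siFOXA1.2. It rose above every control with both siRNAs (log2 fold change 3.39, SE 0.224, edgeR adjusted p = 1.21e-09, and 0.95, edgeR adjusted p = 0.0424).

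TXNIP, an inhibitor of thioredoxin, fell with siFOXA1.1 in RT112 (-1.25, SE 0.158, edgeR adjusted p = 4.87e-06), and PINK1, a kinase of mitochondrial quality control, rose (0.98, SE 0.180, edgeR adjusted p = 0.000323). With siFOXA1.2, BNIP3, a mitophagy receptor, rose too (1.35, edgeR adjusted p = 0.0492), so 2 of 17 were higher and 0 lower, where 0.877% and 0.899% of all genes were. In SCaBER with siFOXA1.1, 3 of 16 were higher and 0 lower, where 3.8% and 4.07% of genes were. These were FBXO32 (1.68, edgeR adjusted p = 0.000240), the mitochondrial superoxide dismutase SOD2 (1.42, edgeR adjusted p = 0.0031) and the growth arrest gene GADD45A (0.71, edgeR adjusted p = 0.0312). With siFOXA1.2, 0 of 16 were called in SCaBER (edgeR), where 0.0373% of all genes were.

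Of the regulators, STK4, a kinase that phosphorylates FOXO proteins (0.79, SE 0.131, edgeR adjusted p = 0.000113), and PIK3CB, a catalytic subunit of PI3K (0.72, SE 0.198, edgeR adjusted p = 0.00900), rose in RT112 with siFOXA1.1. AKT1, which phosphorylates FOXO proteins as well, fell (-0.66, SE 0.180, edgeR adjusted p = 0.00832), so 2 of 11 tested were higher and 1 lower, where 14% and 15.1% of all genes were. In SCaBER with siFOXA1.1, and with siFOXA1.2 in either line, 0 of these 11 were called (edgeR). Of all genes, 7.87% were called in SCaBER with siFOXA1.1, and 1.78% and 0.0373% in RT112 and SCaBER with siFOXA1.2. The RNA of all FOXO genes added together was 138.6 to 182.4 CPM in the RT112 controls, 155.7 and 132.1 CPM with siFOXA1.1, and 172.8 and 158.2 CPM with siFOXA1.2. By this scaling to library totals, 1 siFOXA1.1 library was below the control range. Mitochondrial counts made up 28.2% of that library and 18.0% to 21.2% of the controls, and their part in the difference was not tested.

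**Figure D5:**
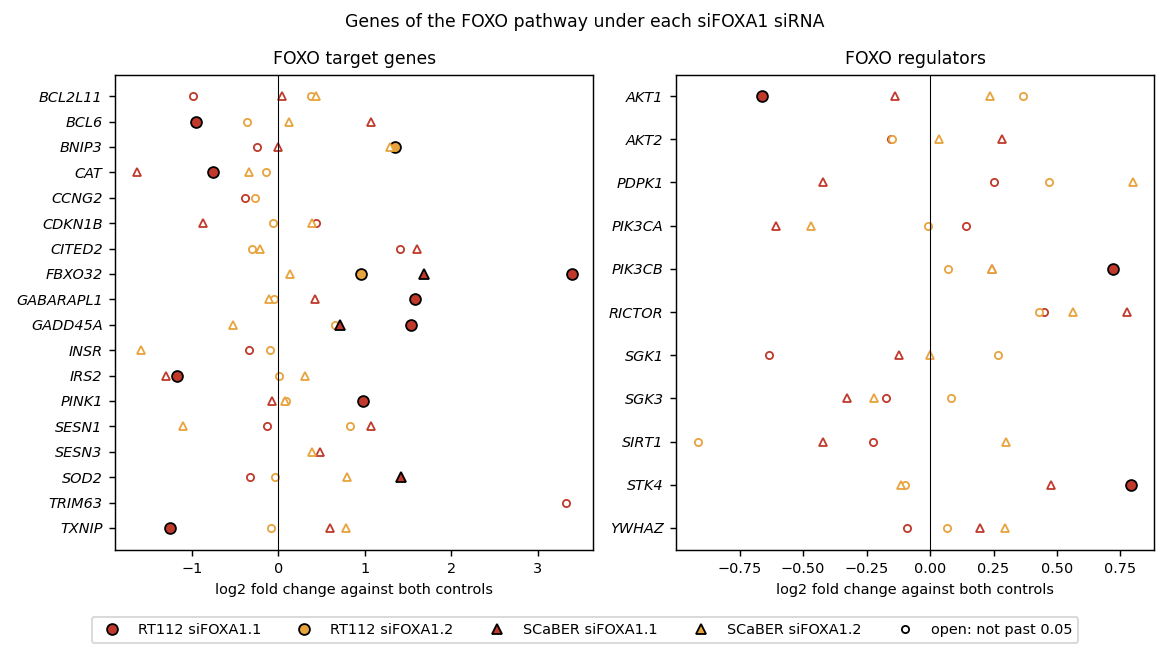
Log2 fold change against both control siRNAs of the FOXO target genes and FOXO regulators tested, for each siFOXA1 siRNA and line, with filled points for adjusted p under 0.05. FBXO32 is above 0 and called with siFOXA1.1 in both lines (3.39 in RT112 and 1.68 in SCaBER).

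The genes most like each forkhead gene that changed were sought among 11203 genes over the 16 libraries, after subtracting the control mean of each line from the log2 CPM. The likeness is a description, since the libraries of 1 siRNA share their difference from the controls. For FOXO1 they were PRR11 (Pearson r = 0.935), GAS6-AS1 (0.932) and WDR76 (0.931). For FOXQ1 they were UNC5B (0.970), HSD17B12 (0.929) and POLA1 (0.920). For FOXC1 they were NUP210 (0.856), JAG2 (0.850) and AC132008.2 (0.842).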

How the data were processed

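RNA from 16 libraries was prepared with a 3′ mRNA kit and sequenced. The authors deposited whole-number counts per gene and TPM values, which divide counts by gene length and scale each library to 1 total. Reads were trimmed with TrimGalore 0.6.2 (minimum quality 20, minimum length 10) and aligned and counted with STAR 2.6.1a on hg38 and GENCODE 29, per the labels and the deposited configuration. The published methods state hg19, and 10 ng rather than 10 nM of siRNA. The setting for strand is given there as automatic, so reads of overlapping antisense genes may not be separable. Dividing by length need not fit a kit that reads transcript ends, so the order of genes by TPM is uncertain. TPM otherwise serves as an alternative.

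Counts were tested with edgeR 4.0.16 in R 4.3.3 (TMM, filterByExpr, quasi-likelihood F test, Benjamini-Hochberg over all genes tested, threshold 0.05). Each line was fitted with 1 mean per siRNA over its 8 libraries. Further fits pooled the siRNAs of a target, compared the 8 control libraries of the lines, and tested line differences in 16 libraries. Standard errors were derived from the F statistic. The forkhead genes and lists were chosen with earlier results of these data known. Genes named were FOXA1, the 9 genes, listed forkhead genes called against both controls with either siRNA, the 3 FOXO targets and 3 regulators with the smallest adjusted p per line and siRNA among those called, neighbours with a mean of 20 counts, and the 3 genes most like each called gene. A further listed gene is not reported here. Alternatives were library totals alone, no filter, DESeq2 1.42.0, limma 3.58.1 on log2(TPM + 1) and log2(TPM + 0.1), DESeq2 size factors in edgeR, mitochondrial genes left out, a replicate block and leaving out each library. Intervals are 95% and come from the same fits. The floor of 3 counts covers counting error only, as there are no molecular identifiers. On simulated counts, siFOXA1.1 against both controls in RT112 recovered 49% of 100 genes changed by 1 on the log2 scale. It recovered 100% of those changed by 2 (12657 genes), and in SCaBER 42% and 100% (12528 genes). The simulated counts varied less between libraries than the real ones. No gene as low as FOXA2 was changed in them, so recovery in the data may be lower.

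The replicate number is an experiment batch in the labels. Deviations from group means of libraries of 1 number correlated at -0.0137 to 0.000642 in RT112 and 0.00286 to 0.142 in SCaBER (6 pairs each, 15464 genes). Of 6 fibroblast, 6 leukocyte and 4 endothelial markers, summed CPM over all libraries reached 146.1, 5.49 and 11.2.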

Additional observations from a re-analysis of the deposited data

Results flagged for a closer look

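In a group of 4 control libraries, 1 library stood far from the others for FOXD1 in each line, among 36 groups examined, of which chance picks about 1 in 20. In RT112 this was replicate 2 of siControl.1, at 3.62 CPM against 10.4 to 10.9 CPM in the other controls. In SCaBER it was replicate 1 of siControl.1, at 13.6 CPM against 21.2 to 22.4 CPM. The change of FOXO1 under siFOXA1.1 differed between the lines, with a log2 difference of -1.65 for RT112 minus SCaBER (edgeR adjusted p = 0.0470).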

How the results depend on the processing

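The falls of FOXO1, FOXQ1 and FOXC1 with siFOXA1.1 in RT112 kept their direction and passed in 8 other settings. Without any 1 library they kept their direction, with log2 fold changes of -2.65 to -1.87, -3.06 to -1.35 and -0.48 to -0.36. Where a library is left out of a fit with 1 mean per siRNA, its arm holds 1 library, assumed to vary like the others. In the pooled fits and between the controls of the lines, the arm keeps more than that. In each the filter keeps more genes, so p-values can be smaller than with every library and say nothing about stability. FOXA1 with siFOXA1.2 in RT112 passed without either siFOXA1.1 library (edgeR adjusted p = 0.0256 and 0.0267). Low counts limited FOXA2, and FOXA1 in SCaBER. The causes of the differences below were not tested.

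The number of genes called depended on the tool more than the forkhead calls did. With DESeq2 it was 391 for RT112 siFOXA1.2 (239 with edgeR), 432 between the RT112 controls (284), 42 for SCaBER siFOXA1.2 (5), 884 between the SCaBER siFOXA1 siRNAs (554), 72 between the SCaBER controls (9), 168 and 37 for the pooled comparisons of RT112 and SCaBER (13 and 1), and 767 and 34 for the line differences under siFOXA1.1 and siFOXA1.2 (400 and 7). Without the count filter the same counts were 376, 449, 42, 863, 91, 123 and 213, and 732 and 66. Library totals alone gave 5 for the RT112 pooled comparison. The replicate block gave 24 for SCaBER siFOXA1.2, 865 between the SCaBER siFOXA1 siRNAs, 37 between the SCaBER controls and 0 for both pooled comparisons.

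With limma on log2(TPM + 1) the counts were 43 for RT112 siFOXA1.2, 50 between the RT112 controls, 631 for SCaBER siFOXA1.1 (1055 with edgeR), 230 between the SCaBER siFOXA1 siRNAs, 2 between the SCaBER controls, 4 and 2 for the pooled comparisons and 619 for the line difference under siFOXA1.1. On log2(TPM + 0.1) they were 43 for RT112 siFOXA1.2, 38 between the RT112 controls, 580 for SCaBER siFOXA1.1, 1 for SCaBER siFOXA1.2, 215 between the SCaBER siFOXA1 siRNAs, 0 between the SCaBER controls, and 1 and 0 for the pooled comparisons.

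Of the 9 forkhead genes, DESeq2, the fit without the filter and the replicate block each called 1 rather than 0 for SCaBER siFOXA1.1 (FOXD1) and 1 rather than 0 between the SCaBER siFOXA1 siRNAs (FOXO1), the fit without the filter also 1 rather than 0 for the line difference under siFOXA1.2 (FOXC1), and limma on TPM with either pseudocount 0 rather than 1 for RT112 siFOXA1.2 (FOXC1). Between the lines, FOXO3 passed with library totals alone, without the filter, with DESeq2 and with limma on TPM, and FOXO1 did not pass with limma on TPM. The replicate block changed no other call of a forkhead gene.

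Another scaling moved the split of calls by over 10 percentage points. With library totals alone the share of higher calls was 37.8% rather than 48% for RT112 siFOXA1.1, 40.6% rather than 52.1% between the RT112 controls, and in the RT112 pooled comparison 20% rather than 38.5%. With limma on log2(TPM + 1) it was 22.6% for RT112 siFOXA1.1, 30.2% rather than 49.4% for RT112 siFOXA1.2, 23.3% rather than 46.0% between the RT112 siFOXA1 siRNAs, 42% rather than 52.1% between the RT112 controls, 36.6% rather than 48.3% for SCaBER siFOXA1.1, 28.6% rather than 48.9% between the lines and 17.8% rather than 40.0% for the line difference under siFOXA1.1. With limma on log2(TPM + 1) the share in the RT112 pooled comparison was 25% rather than 38.5%. That comparison had only 1 higher and 4 lower calls with library totals alone, and 1 and 3 with limma on log2(TPM + 1). Comparisons with at most 9 calls in the reported fit are left out.

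Values that were not called changed sign with limma on log2(TPM + 1) and log2(TPM + 0.1) for FOXK1 with RT112 siFOXA1.1 (-0.079 and -0.075), FOXA2 between the RT112 controls (-0.015 and -0.023), FOXC1 (-0.081 and -0.082) and FOXO3 (-0.0090 and -0.0087) in the RT112 pooled comparison, FOXP1 between the lines (-0.22 and -0.34) and FOXK1 in the line difference under siFOXA1.1 (-0.084 and -0.079). FOXA1 in the line difference under siFOXA1.2 did so on log2(TPM + 1) only (-0.52).

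Leaving out 1 library at a time gave log2 values on both sides of 0 for these uncalled results. With RT112 siFOXA1.2 these were FOXA2 (-0.50 to 0.34), FOXD1 (-0.014 to 0.73) and FOXO3 (-0.13 to 0.10), with 154 to 586 genes called. Between the RT112 controls it was FOXA2 (-0.021 to 0.27), with 138 to 671 genes. In the RT112 pooled comparison these were FOXC1 (-0.0076 to 0.33), FOXD1 (-0.38 to 0.032) and FOXP1 (-0.26 to 0.24), with 0 to 4 genes. Between the lines it was FOXP1 (-0.10 to 0.17).

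With SCaBER siFOXA1.1 these were FOXK1 (-0.19 to 0.25) and FOXP1 (-0.19 to 0.38), with 757 to 1599 genes and 0 to 1 forkhead genes called. With SCaBER siFOXA1.2 these were FOXA2 (-0.66 to 0.69) and FOXD1 (-0.16 to 0.21), with 0 to 61 genes. Between the SCaBER siFOXA1 siRNAs these were FOXA1 (-4.54 to 3.56), FOXC1 (-0.99 to 0.44) and FOXP1 (-0.49 to 0.072), with 176 to 1268 genes and 0 to 1 forkhead genes. Between the SCaBER controls these were FOXA2 (-1.64 to 0.081) and FOXC1 (-0.65 to 0.27), with 4 to 134 genes. In the SCaBER pooled comparison these were FOXO1 (-0.24 to 0.52) and FOXQ1 (-0.35 to 0.33), with 0 to 3 genes.

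For the line difference under siFOXA1.1 these were FOXA1 (-2.16 to 2.42), FOXC1 (-0.21 to 1.19) and FOXK1 (-0.083 to 0.40), with 377 to 994 genes and 0 to 2 forkhead genes called. Under siFOXA1.2 these were FOXA1 (-0.88 to 4.78), FOXA2 (-0.70 to 0.64), FOXD1 (-0.041 to 0.71), FOXK1 (-0.0044 to 0.44), FOXO1 (-0.57 to 0.077) and FOXP1 (-0.0097 to 0.27), with 9 to 47 genes and 0 to 1 forkhead genes. Over all forkhead values and settings, 1893 kept direction and call, 64 changed sign, 26 passed only in the other setting and 17 only in the reported one.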
